A study of Caenorhabditis elegans with 24 samples.

Results

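The genes described here are those with WormBase identifiers WBGene00000596 to WBGene00000757, the range that holds the col class of cuticle collagens of the nematode Caenorhabditis elegans. Of the 162 identifiers in that range, 130 had a probe on the array (1 probe each, of 15208 genes with a probe in all) and 32 had none. Membership was set by identifier, but the range was chosen by a measured value: WBGene00000720 had the largest fall in level of these genes with 25 °C grandparents. All values by grandparental temperature are therefore a description, with no test. Of the 130 identifiers, 0 were found in the reference gene table that was given, so members are named by identifier, the class name rests on the identifier range alone, and no role, sequence or position is given for a single member.

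Cuticle collagens are small secreted proteins with Gly-X-Y repeats, encoded in worms by one of the largest gene families of the genome. The hypodermis, the skin-like layer under the cuticle, makes them in bursts, late in embryogenesis and again before each moult. A 4-cell embryo has no hypodermis yet, and most of its messenger RNA was loaded into the oocyte by the mother.

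Each sample held total RNA of 50 hand-collected embryos labelled as 4-cell stage, amplified in 2 rounds, labelled with Cy3 and hybridised to 1 one-colour Agilent array. The samples came from 2 strains: HC445, which carries sid-1(qt9) and, per the labels, is suspected to lack haf-6 as well, and N2, the standard wild type (sid-1 encodes a channel that imports double-stranded RNA into cells). Embryos of generation 2 had mothers from 25 °C or 20 °C cultures, with grandparents at 20 °C. Those of generation 3 had grandparents from 25 °C or 20 °C cultures, and all of their mothers lived at 20 °C. The 8 groups had 3 samples each, 24 in all, and every culture was fed a sporulation-defective Bacillus subtilis strain. The replicates were collected separately. Whether their parents grew in separate cultures is not stated, and p-values measure only the spread between these samples. The stage label could not be checked against marker genes, because no identifier could be paired with a name.

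Between 9109 and 13075 of the 15208 probes per array were well above background, the scanner software's flag for a spot brighter than its local background. The arrays lay on 14 slides and were scanned on 3 days, each with 1 array of every group. All 4 replicate 3 arrays of the 25 °C groups shared 1 slide with no 20 °C array, and 6 arrays, 5 of them from 25 °C groups, carry a note on the spike-in concentration. Levels are log2 of the processed signal minus log2 of the array's 75th percentile, so a level of 0 is at that percentile. Levels are compared between samples for 1 probe, never between probes. Probes of a large, similar gene family may also bind each other's transcripts, which was not tested here.

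The col genes were detected less often, and varied more between replicates, than the probes of the array as a whole. On all 24 arrays together, 35 members were well above background (26.9%, against 55.2% of all probes), 84 were so on 1 to 23 arrays and 11 on none. Tests were run on probes with the flag on all 3 arrays of some group, which were 82 members (63.1%) and 76.5% of all probes. The median SD between replicates was 0.80 log2 units for the 82 members (0.36 to 1.72), against 0.37 for all 11637 probes tested. For the 35 members above background on all arrays it was 0.71, against 0.27 for all 8391 such probes.

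Replicates 2 and 3 of N2 with 20 °C grandparents stood apart. Of the 82 members, 23 lay at least 4-fold above their own mean over all arrays on replicate 2 (3.81% of all probes did) and 15 on replicate 3 (1.53% of all probes). The 15 members of replicate 3 were above that mark on both arrays. On replicate 1 of the same group, 3 members were. On any other array the most was 7. Grandparental values in N2, and the N2 side of the strain comparison with ancestors at 20 °C, hold these 2 arrays. The main counts and the grandparental member medians are given with and without them below.

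The number of members detected did not follow rearing temperature in one direction. Members well above background on every array of the group numbered 42 in N2 after 25 °C mothers and 59 after 20 °C mothers, and 62 in HC445 after 25 °C mothers and 52 after 20 °C mothers. With 25 °C grandparents the number was 69 in N2, against 59 with 20 °C grandparents, and in HC445 it was 64 with 25 °C grandparents, against 56 with 20 °C grandparents. On at least 1 array of the group, 84 to 107 members were detected. The group with the fewest, N2 after 25 °C mothers, holds the array with the fewest detected members (43, replicate 2), and the most were on replicate 3 of HC445 with 20 °C grandparents (104). Over all probes, the share above background on every array of a group ran between 58.9% (N2 after 25 °C mothers) and 72.2% (N2 with 25 °C grandparents), and those 2 groups were also the lowest and the highest for the members (32.3% and 53.1%).

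The flag depends on each array's own background. The dimmest signal that was flagged lay at a median level of -9.60 on arrays of 25 °C mothers and -8.88 on those of 20 °C mothers, and at -10.11 with 25 °C grandparents and -9.04 with 20 °C grandparents. With 1 level common to all arrays (-8.16, the highest of the 24, a count chosen after the data were seen), 37 members were above it on every array in N2 after 25 °C mothers and 45 after 20 °C mothers, and 37 in HC445 after 25 °C mothers and 40 after 20 °C mothers. With 25 °C grandparents 42 were above it in N2, against 53 with 20 °C grandparents, and 44 in HC445, against 44 with 20 °C grandparents. Counted this way, the 25 °C group was lower in 3 of the 4 pairs and level in the other. Over all probes, the share above this level per array was 61.2% to 65.5% in N2 after 25 °C mothers, against 63.6% to 71.5%. In HC445 it was 61.0% to 65.0%, against 64.5% to 66.6%. With 25 °C grandparents it was 62.3% to 68.7% in N2, against 64.8% to 68.8%, and 64.7% to 65.9% in HC445, against 63.6% to 70.1%. The highest array of each 25 °C group was thus below the highest of its 20 °C group over all probes too.

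**Figure D1:**
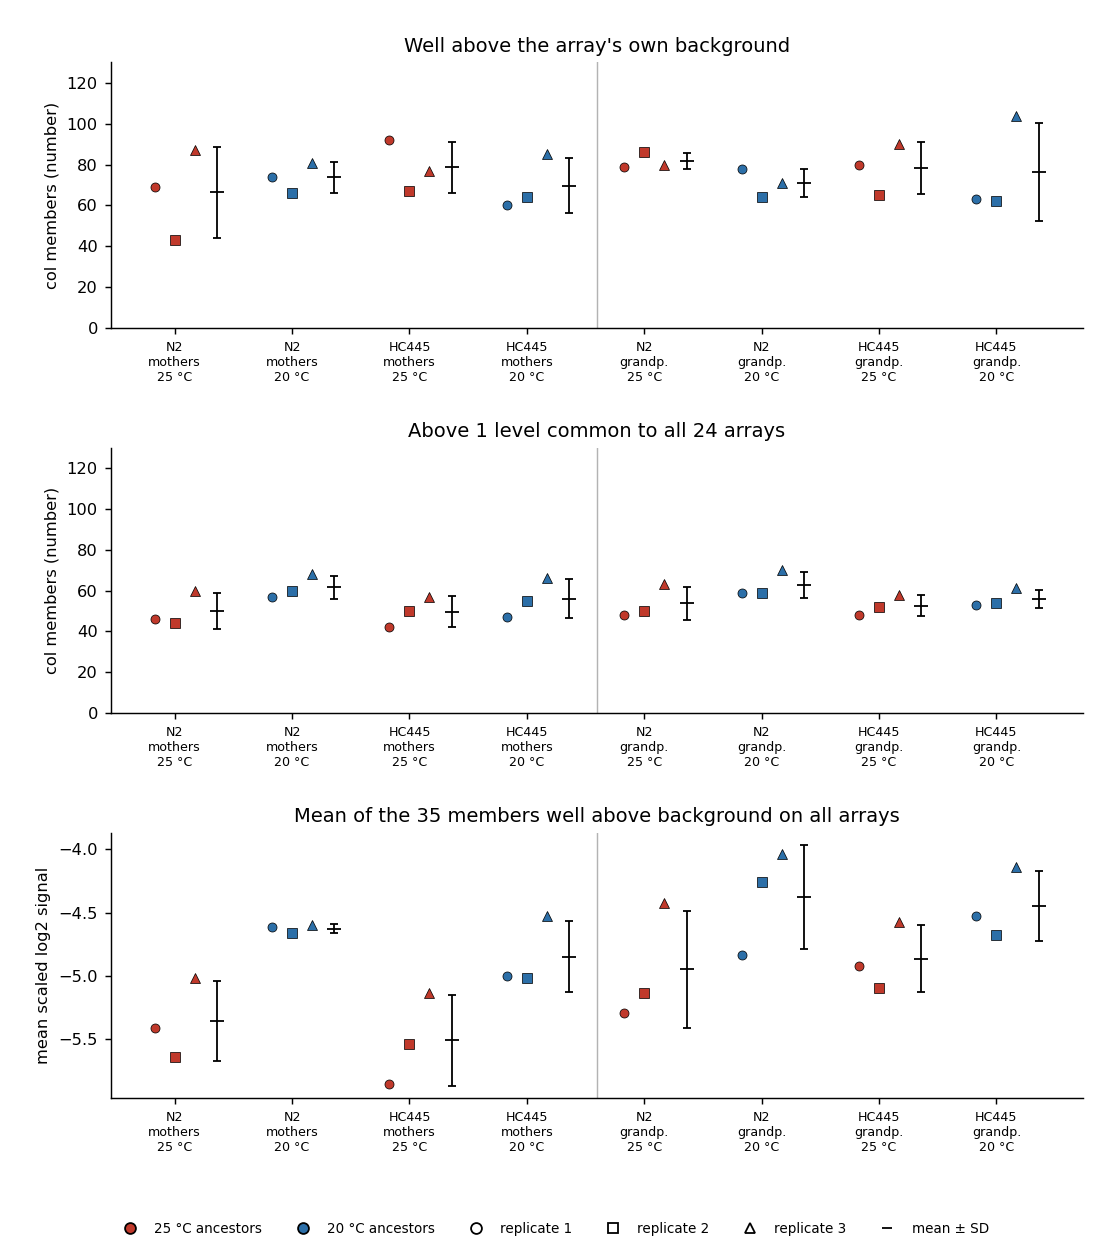
Members well above background per array (top), members above 1 level common to all arrays (middle) and the mean scaled log2 signal of the 35 members above background on all arrays (bottom), for the 8 groups; points are arrays, with the replicate number as symbol, and bars the mean and SD (n = 3). The top counts run from 43 to 104 with no common direction by temperature, while in the bottom panel each 25 °C group's mean lies below that of its 20 °C group.

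After 25 °C mothers, col genes were lower far more often than higher. Of the 82 members tested, 17 passed an adjusted p of 0.05 over both strains, 15 lower and 2 higher than after 20 °C mothers (limma, two-sided, Benjamini-Hochberg adjustment over all 11637 probes). Among all probes, 14% were called, 8.52% lower and 5.45% higher. Members called lower were 18.3% of those tested, and members called higher were 2.44%. The median log2 difference was -0.51 over the 82 members and -0.07 over all probes, and 67 of the 82 members (81.7%) were below 0, against 57.9% of all probes. Because the filter on dim probes can itself favour probes that differ, the same was taken over all 130 members with no filter. Of these, 109 were below 0 (83.8%, against 64.1% of all 15208 probes), with a median of -0.55, against -0.15 over all probes. Over the 35 members above background on all 24 arrays, the median was -0.47, against -0.03 over all 8391 such probes. Of the 35 members, 29 were below 0 and 10 were called, 9 of them lower. Of the 8391 probes, 53.7% were below 0 and 1392 were called, 799 of them lower. The mean level of these 35 was -5.36 ± 0.32 in N2 after 25 °C mothers, against -4.63 ± 0.035 after 20 °C mothers, and -5.51 ± 0.36 in HC445 after 25 °C mothers, against -4.85 ± 0.28 after 20 °C mothers (SD, n = 3 each), with no overlap between arrays in either strain. In bulk RNA, fewer cells that hold a transcript and less RNA per cell cannot be told apart.

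The size of the shift, unlike its direction, depended on the scaling. The member median was -0.17 with quantile normalisation, -0.11 with another background correction (normexp) and -0.17 in the authors' deposited values. The calls were 11 lower and 2 higher, 9 lower and 3 higher, and 13 lower and 2 higher in these settings in that order. Over all probes, 992 calls were lower and 634 higher in the main scaling. They were 752 lower and 936 higher after quantile normalisation, 710 and 910 after normexp, and 756 and 915 in the deposited values. In these settings the member calls were thus mostly lower and those of all probes mostly higher. In either direction 13, 12 and 15 of 82 members were called, against 1688, 1620 and 1671 of 11637 probes. With quantile normalisation and normexp, these shares were close to those of all probes.

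**Figure D2:**
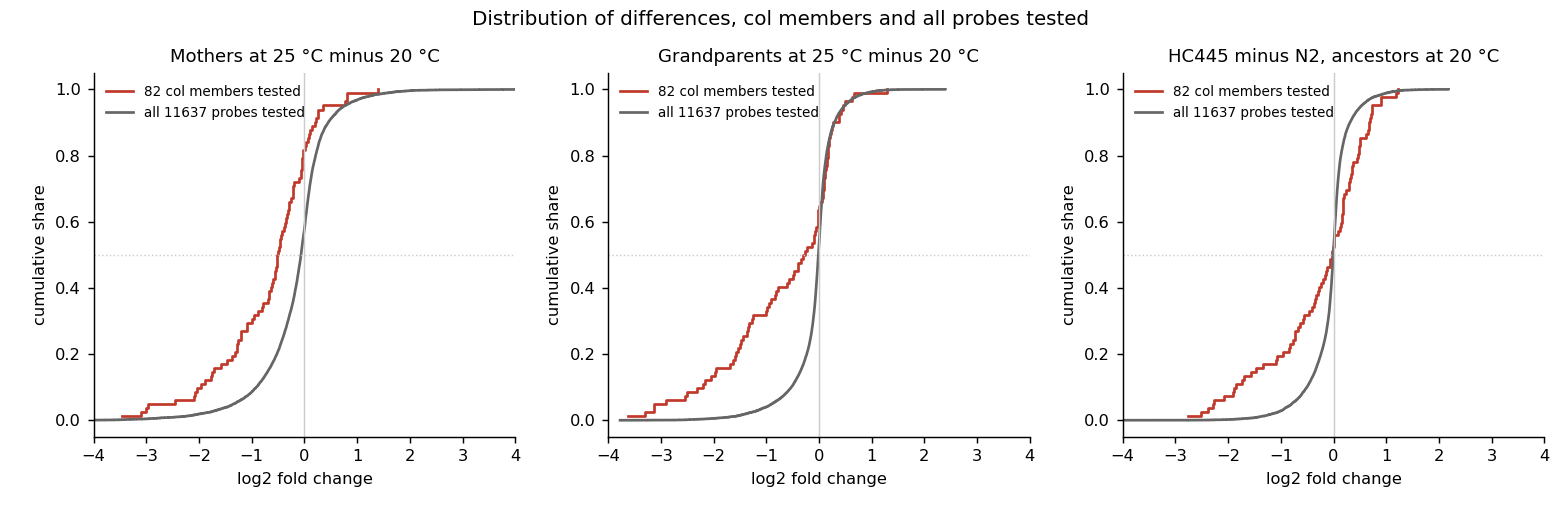
Cumulative share of the 82 tested col members and of all 11637 tested probes by log2 difference, for mothers at 25 °C minus 20 °C (left), grandparents at 25 °C minus 20 °C (middle) and HC445 minus N2 with ancestors at 20 °C (right); values beyond 4 in size are not drawn. The member curve lies left of the curve of all probes on the negative side of each panel, with medians of -0.51, -0.28 and -0.03, against -0.07, -0.01 and -0.0047 for all probes.

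The 15 falls had a median log2 difference of -1.96 and ran from -0.81 to -3.46. Of them, 14 were at least 2-fold and 7 at least 4-fold, and in 14 every 25 °C array with a value lay below the mean of its own strain's 20 °C arrays. In 9 the 25 °C and 20 °C arrays did not overlap at all. These members were already picked as called, and non-overlap was not counted over all probes, so the 9 is a description only. All 15 were negative in each strain, with a median of -2.23 in N2 and -1.87 in HC445. Signal was not at the limit for most of them: 9 were above background on all 24 arrays, and no value of the 15 lay at the floor of tied dim values that 3 arrays showed.

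WBGene00000703 had the largest fall. Its levels were -6.58, -5.83 and -5.77 in N2 after 25 °C mothers, against -2.46, -1.83 and -3.16 after 20 °C mothers. In HC445 they were -7.11 and -5.50 after 25 °C mothers, with the third spot set aside as an outlier, against -3.01, -2.89 and -2.99 after 20 °C mothers. All 25 °C values lay below all 20 °C values, and the spot was above background on every array. The difference was -3.46 ± 0.39 (SE; 11-fold lower, adjusted p = 2.4e-06, limma). It held the threshold in each strain, at -3.58 ± 0.52 in N2 (adjusted p = 0.000181, limma) and -3.34 ± 0.59 in HC445 (adjusted p = 0.00119, limma).

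WBGene00000719 had the second largest fall that met the rule for naming. It measured -9.70, -8.89 and -9.28 in N2 after 25 °C mothers, against -7.13, -5.30 and -5.60 after 20 °C mothers. In HC445 it measured -9.69, -10.10 and -9.90 after 25 °C mothers, against -7.50, -7.32 and -6.13 after 20 °C mothers. The 2 temperatures did not overlap in either strain, but only 2 of the 6 arrays of 25 °C mothers, against all 6 of 20 °C mothers, were well above background. The difference was -3.09 ± 0.43 (SE; adjusted p = 2.21e-05, limma).

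Of the 2 rises, WBGene00000644 was higher on every 25 °C array than its strain's 20 °C mean. Its levels were -5.25, -4.85 and -5.48 in N2 and -5.17, -5.52 and -5.36 in HC445 after 25 °C mothers. After 20 °C mothers they were -6.98, -5.73 and -6.13 in N2 and -6.27, -5.35 and -5.81 in HC445. The ranges overlapped. The difference was 0.77 ± 0.23 (SE; 1.71-fold, adjusted p = 0.0294, limma), and it missed the threshold when any 1 of 6 arrays was left out (N2 after 25 °C mothers replicate 2, N2 after 20 °C mothers replicate 1, HC445 after 25 °C mothers replicates 1 and 3, HC445 after 20 °C mothers replicates 1 and 3). The other rise, WBGene00000601, was 1.40 ± 0.36 (SE; adjusted p = 0.0108, limma), and 5 of 6 arrays lay on that side.

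**Figure D3:**
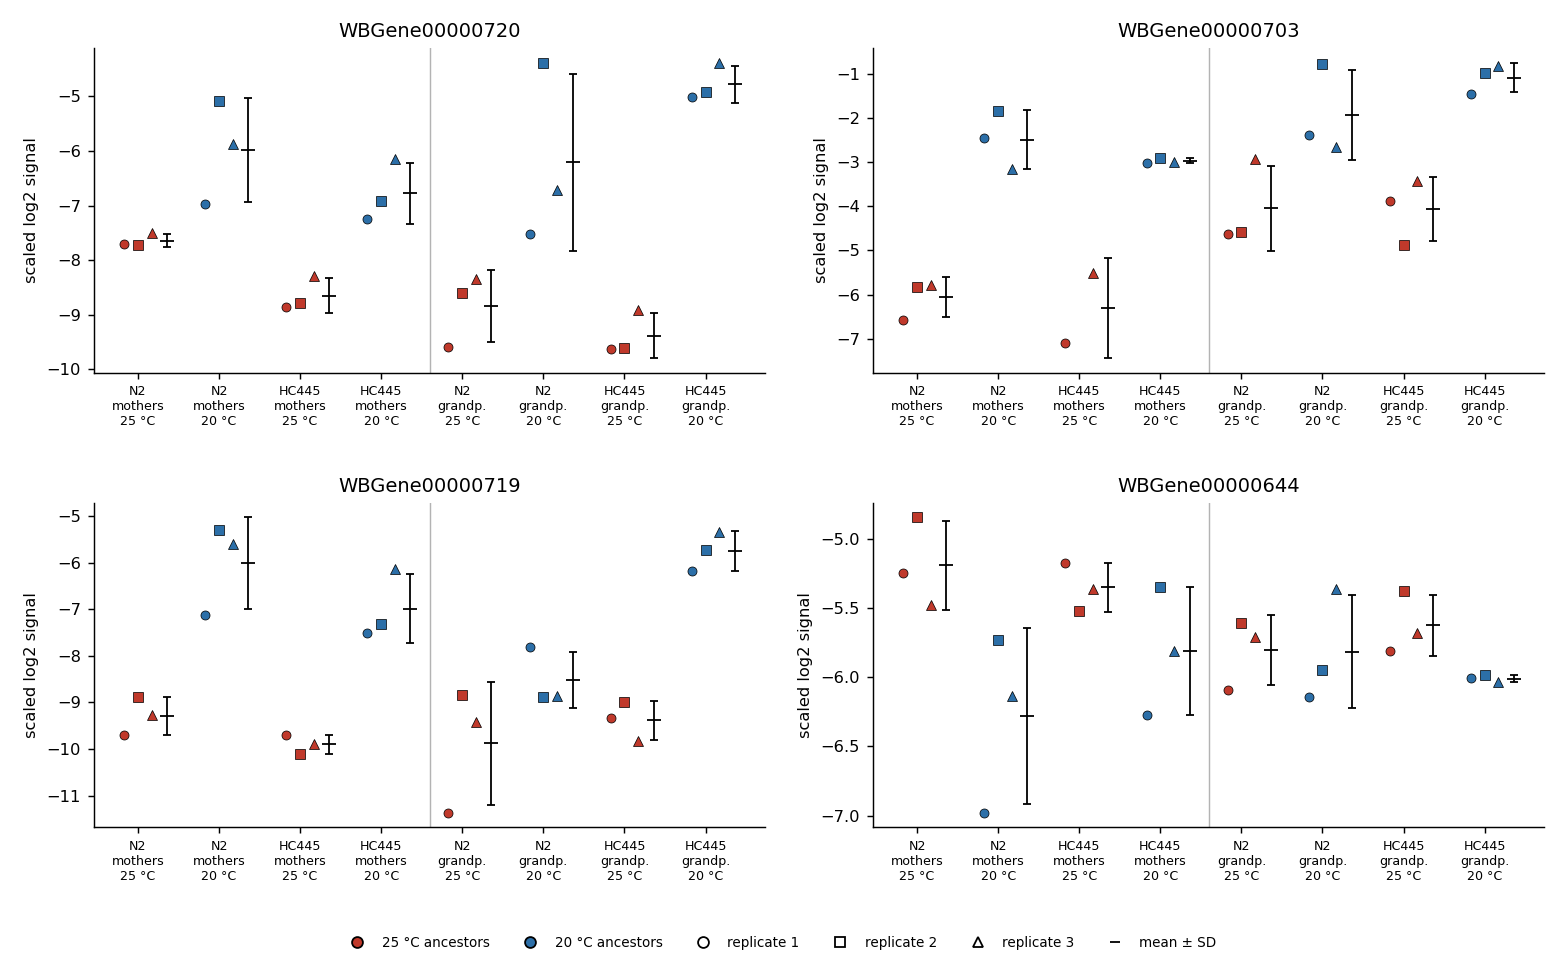
Scaled log2 signal of 4 col members on every array by group, with the replicate number as symbol and the mean and SD per group (n = 3, or 2 for WBGene00000703 in HC445 after 25 °C mothers). WBGene00000720, WBGene00000703 and WBGene00000719 lie lower on all arrays of 25 °C mothers than on any of 20 °C mothers, while WBGene00000644 overlaps.

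Within each scan day the falls kept their sign. The member median was -0.37, -0.64 and -0.60 for replicates 1, 2 and 3, against -0.04, -0.04 and -0.09 for all probes, and every called member with a value kept its direction on each day. With scan day as a block 25 members were called (23 lower), and 2670 of all probes (1616 lower). With slide as a random block 24 members were called (22 lower), and 1934 of all probes (1169 lower). Calls over all probes thus also rose from the 1626 of the main fit. A fixed block for slide leaves at most 3 residual degrees of freedom, and 2 members were then called, both lower, of 30 called probes in all. Leaving out the 6 arrays with the spike-in note, which leaves 1 array of N2 after 25 °C mothers, gave a member median of -0.83, against -0.12 over all probes. Leaving out the slide that held only 25 °C arrays left 12 falls among 85 members, against 738 lower calls among 11991 probes. Lower calls over all probes thus also fell from the 992 of the main fit. Leaving out HC445 after 20 °C mothers replicate 3 left 11 calls, and the member median shrank to -0.31 without N2 after 25 °C mothers replicate 2.

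In N2 alone, 8 members were called after 25 °C mothers (7 lower, 1 higher; 5.47% of all probes were called, 3.34% lower and 2.12% higher), and in HC445 alone 6, all lower (5.08% of all probes, 2.73% lower). Both strains called 5 of the falls, which is 71.4% of the 7 in N2 and 83.3% of the 6 in HC445. The 7 falls of N2 were all negative in HC445, with a median of -2.12, and the 6 of HC445 were all negative in N2, with a median of -2.91. Neither the overlap nor the sign in the other strain was counted over all probes, so both are a description only. A difference between the strains' responses passed the threshold for 0 of the 82 members, and for 0 of all probes. At an unadjusted p under 0.05 it was 2 members (2.44%) and 142 probes (1.22%). The median SE of that difference was 0.88 log2 units over the members.

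The largest fall in N2 alone was that of WBGene00000751. It measured -11.80, -10.20 and -9.64 in N2 after 25 °C mothers, where 1 of 3 arrays was above background, against -5.95, -5.84 and -8.39 after 20 °C mothers. The ranges did not overlap, and the difference was -3.82 ± 1.09 (SE; adjusted p = 0.0402, limma). In HC445 the same probe measured -9.96, -6.72 and -10.90 after 25 °C mothers, against -9.24, -10.11 and -7.08 after 20 °C mothers, and there the ranges overlapped. The call in N2 was lost when any 1 of 5 of the 6 N2 arrays was left out, all but replicate 3 of 20 °C mothers.

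WBGene00000601 was the 1 rise in N2. Its levels were -8.54, -8.33 and -8.29 after 25 °C mothers, where 2 of 3 arrays were well above background. After 20 °C mothers they were -11.25, -10.70 and -10.53, and no array was well above background. The change was at least 1.49-fold, with the dim group set at each array's lowest flagged signal (fitted difference 2.44 ± 0.51, SE, adjusted p = 0.00441, limma). The 25 °C mean in this bound includes the array without the flag, so the bound is not strict. In HC445 alone, WBGene00000715 had the next largest fall after WBGene00000703 among the called members. It measured -6.19, -5.998 and -5.70 after 25 °C mothers, against -3.26, -3.16 and -2.73 after 20 °C mothers. The groups lay far apart for their spread, with a difference of -2.91 ± 0.52 (SE; 7.53-fold lower, adjusted p = 0.00129, limma).

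WBGene00000720, the member that led to the choice of the range, was also lower after 25 °C mothers, in arrays that the choice did not use. It measured -7.70, -7.72 and -7.51 in N2 after 25 °C mothers, against -6.97, -5.09 and -5.88 after 20 °C mothers. In HC445 it measured -8.87, -8.79 and -8.29 after 25 °C mothers, against -7.25, -6.92 and -6.15 after 20 °C mothers. The 2 temperatures did not overlap within either strain. Over both strains the difference was -1.77 ± 0.43 (SE; 3.40-fold lower, adjusted p = 0.00641, limma). In single strains it did not pass, at -1.66 ± 0.60 in N2 (adjusted p = 0.122, limma) and -1.87 ± 0.60 in HC445 (adjusted p = 0.0801, limma), and the strains' differences were -0.21 ± 0.85 apart. The call over both strains was lost when the arrays noted for their spike-in were left out (-2.01, adjusted p = 0.0664, limma) and with slide as a fixed block (-1.91, adjusted p = 0.394, limma). Over all its alternatives the adjusted p ran from 0.000901 to 0.394.

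With 25 °C grandparents, the arrays from which WBGene00000720 was picked, 6 members passed the same threshold, all lower, among 33 calls on the array (0.284% of all probes, 0.232% lower). They are given as a description. The members that passed the filter on dim probes only through N2 with 20 °C grandparents, the group of the 2 arrays that stood apart, were 2 of the 82, WBGene00000693 and WBGene00000757 (named after their values were seen), and both were among the 6. Over all probes tested, 0.292% passed only through that group. The member median was -0.28, against -0.01 over all probes, and 53 of 82 members were below 0 (64.6%, against 53.0% of all probes). Over all 130 members it was -0.41, against -0.05 over all 15208 probes. Of the 6 falls, 4 were also among the 15 falls after 25 °C mothers, which is 66.7% of the 6 and 26.7% of the 15. This overlap was not counted over all probes, so it is not shown to be particular to the members. In 2 of the 6, no array with 25 °C grandparents was above background, so that their size has only a lower bound.

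WBGene00000720 had the largest of these differences. In HC445 it measured -9.62, -9.62 and -8.91 with 25 °C grandparents, against -5.02, -4.92 and -4.39 with 20 °C grandparents. In N2 it measured -9.58, -8.59 and -8.35 with 25 °C grandparents, against -7.52, -4.39 and -6.72 with 20 °C grandparents. The temperatures did not overlap in either strain, and the difference was -3.62 ± 0.43 over both (SE; 12.3-fold lower), -4.60 ± 0.60 in HC445 and -2.63 ± 0.60 in N2. Replicate 2 of HC445 with 25 °C grandparents was the 1 array of 24 on which this probe was not well above background. In order of mean level, the 8 groups ran from -9.38 ± 0.41 (HC445, 25 °C grandparents), -8.84 ± 0.65 (N2, 25 °C grandparents), -8.65 ± 0.31 (HC445, 25 °C mothers), -7.64 ± 0.12 (N2, 25 °C mothers), -6.77 ± 0.56 (HC445, 20 °C mothers), -6.21 ± 1.62 (N2, 20 °C grandparents) and -5.98 ± 0.95 (N2, 20 °C mothers) up to -4.78 ± 0.34 (HC445, 20 °C grandparents; SD, n = 3 each). The means of all 4 groups with a 25 °C ancestor were below those of all 4 with none. Neighbours in this order overlapped in their single values in 4 of the 7 steps.

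The next most negative value by the rule for naming was that of WBGene00000680, at -3.30 ± 0.85 (SE), which was not among the 6. Its ranges did not overlap within either strain and overlapped only with the strains pooled. Its levels in N2 were -12.53, -8.70 and -7.87 with 25 °C grandparents, against -7.01, -3.76 and -4.42 with 20 °C grandparents. In HC445 they were -10.66, -8.59 and -9.60 with 25 °C grandparents, against -8.52, -7.21 and -7.23 with 20 °C grandparents. Only 4 of the 6 arrays with 25 °C grandparents were well above background. The largest positive values were smaller: 1.29 ± 0.63 for WBGene00000737, whose sign turned on replicate 3 (-1.12), and 0.67 ± 0.54 for WBGene00000610.

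Within single strains, also as a description, N2 had 5 falls (0.112% of all probes were called, 0.0945% lower) and HC445 had 4 (0.0859% of all probes, 0.0602% lower) by grandparental temperature, and 0 members were in both lists. Whether the strains differ in this was not tested. Of the 5 falls of N2, 2 had passed the filter on dim probes only through N2 with 20 °C grandparents, where they were high. Over all probes tested, 0.292% had passed only through that group. The 5 falls of N2 were no longer called after quantile normalisation or in the authors' deposited values (0 each), nor when the arrays noted for their spike-in were left out. Without replicate 2 of N2 with 20 °C grandparents, and likewise without replicate 3, the 2 arrays that stood apart, 4 members were called over both strains instead of 6, and the member medians were -0.32 and -0.18. The calls over all probes were 12 and 27 in that order, against 33 with them. Without both arrays, an alternative added after seeing the data that leaves 1 array in that group, 3 were called and the median was -0.22. In N2 alone, 0 members were called without replicate 2 or without replicate 3, against 5 with them. Over all probes 0 and 2 were then called, against 13 with them. The N2 median was -0.48 without replicate 2, -0.100 without replicate 3 and -0.05 without both, against -0.25 with them. WBGene00000720 in N2 was -1.72 ± 0.53 without replicate 2, -2.89 ± 0.68 without replicate 3 and -1.32 ± 0.68 without both (SE), against -2.63 ± 0.60 with them. Without replicate 1 of that group, 12 were called. Other single arrays moved the count to 10 (N2 after 20 °C mothers replicate 3) and to 3 (HC445 with 25 °C grandparents replicate 2). The calls over all probes are not given for these last counts of 12, 10 and 3. The median also shrank to -0.13 without N2 with 25 °C grandparents replicate 1, to -0.15 without HC445 with 25 °C grandparents replicate 1 and to -0.18 without HC445 with 25 °C grandparents replicate 2.

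**Figure D4:**
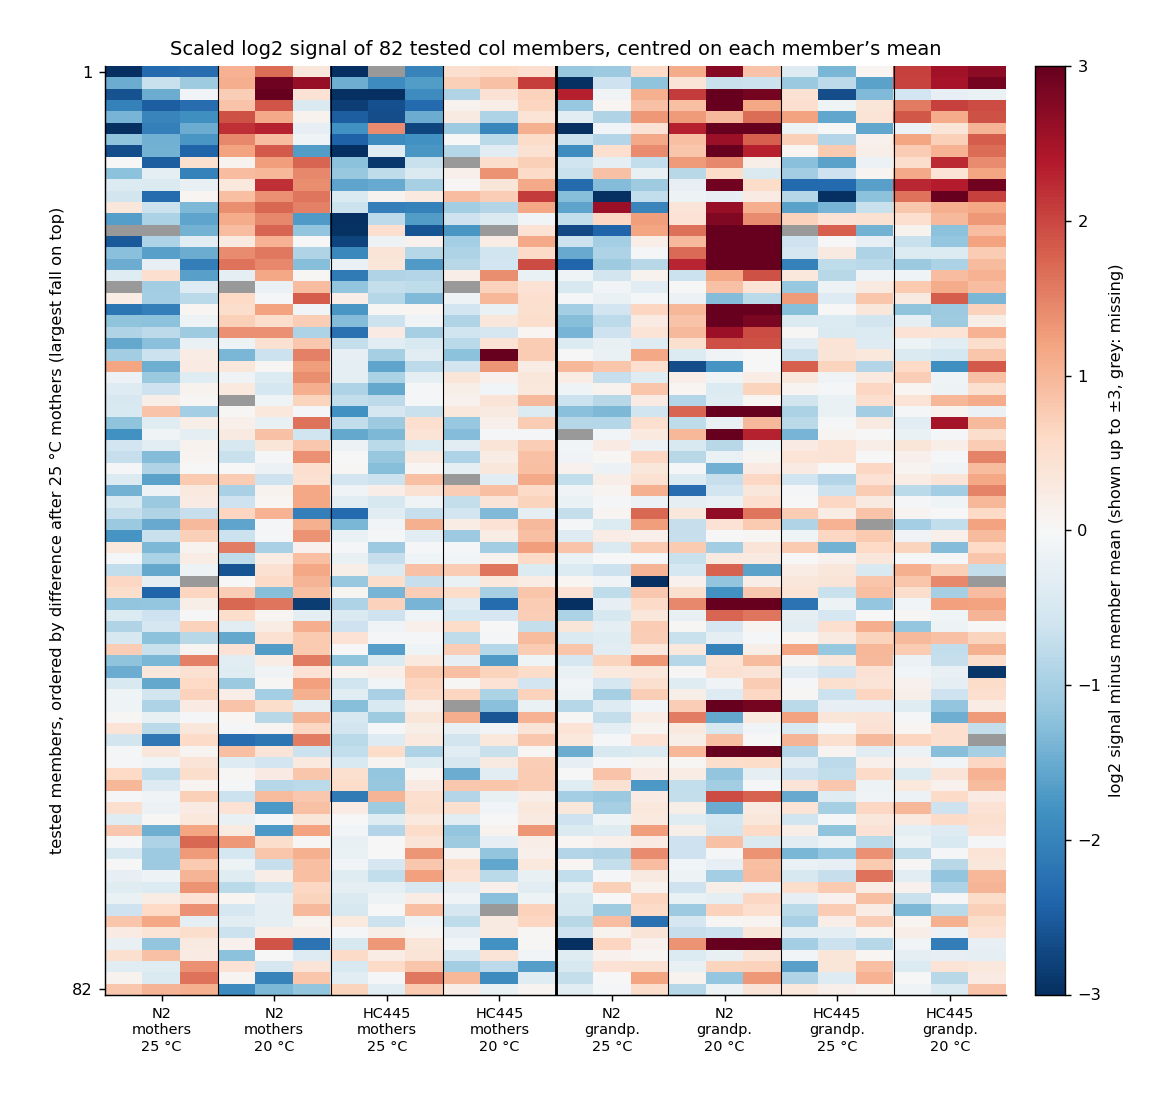
Scaled log2 signal of the 82 tested col members on the 24 arrays, each member centred on its own mean and drawn up to 3 in size (red higher, blue lower, grey a spot set aside); rows run from the largest fall after 25 °C mothers to the largest rise, columns are replicates 1 to 3 of each group. The upper rows are blue in both groups of 25 °C mothers, and 15 members are at least 4-fold above their mean on both replicates 2 and 3 of N2 with 20 °C grandparents.

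The 15 members that fell after 25 °C mothers were all below 0 with 25 °C grandparents too, with a median of -1.50 and a range of -0.35 to -3.62. WBGene00000703 had -3.46 ± 0.39 by mothers and -2.55 ± 0.37 by grandparents, and WBGene00000719 had -3.09 ± 0.43 and -2.49 ± 0.43 (SE). WBGene00000720 had -1.77 by mothers and -3.62 by grandparents. These comparisons use different arrays, but the grandparental one is described only, since it was the basis for choosing the range.

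**Figure D5:**
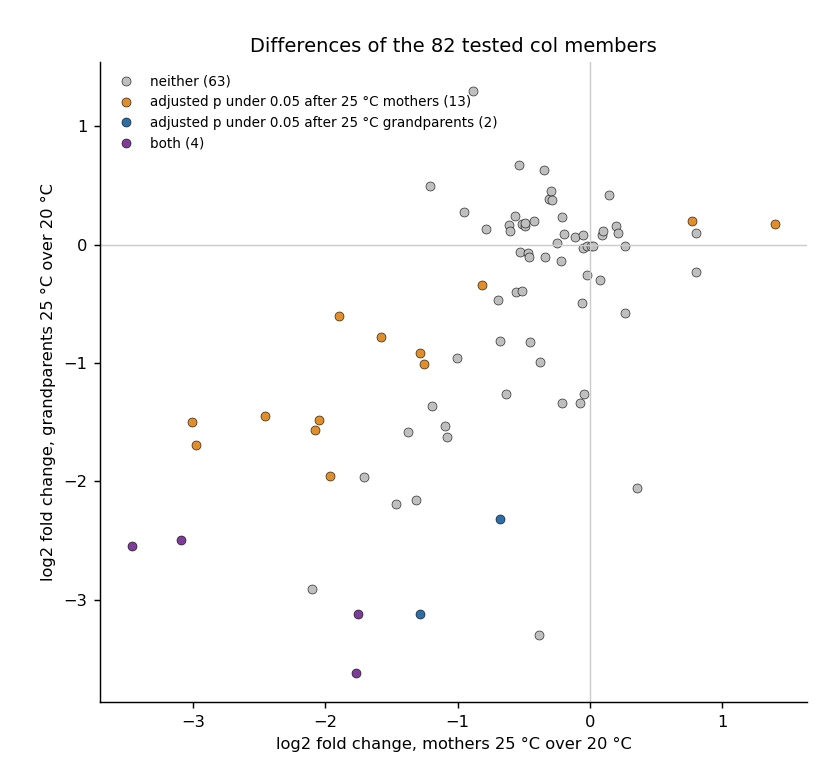
Log2 difference of each of the 82 tested members after 25 °C mothers (x axis) and with 25 °C grandparents (y axis), both against 20 °C and over both strains, coloured by which of the comparisons passed an adjusted p of 0.05. The 4 members called in both and the 13 called by mothers alone include all 15 maternal falls, all of them below 0 on both axes. The same was not counted over all probes.

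Between the strains at the same temperature no col gene passed the threshold. With ancestors at 20 °C, 0 members passed the threshold between HC445 and N2 (13 of all probes did, 0.112%), and the lowest adjusted p among members was 0.0861 (limma). At an unadjusted p under 0.05 there were 20 members (24.4%), 15 lower and 5 higher in HC445, against 5.41% of all probes. Of these members 2, both lower, had passed the filter on dim probes only through N2 with 20 °C grandparents, where they were high. Among all probes tested, 0.292% had passed only through that group. The N2 side holds the 2 arrays that stood apart. Without replicate 2, and likewise without replicate 3, there were 17 members (20.7%), against 4.36% and 5.13% of all probes. Without both there were 11 of 85 members (12.9%), 6 of them lower in HC445, against 3.35% of all probes. The member median was -0.03, and its sign turned after quantile normalisation (0.060). After 25 °C mothers, 0 members passed between HC445 and N2 (7 of all probes did, 0.0602%), and 0 members had an unadjusted p under 0.05, against 2.03% of all probes. With scan day as a block 4 members passed with ancestors at 20 °C, and with slide as a random block 2, all lower in HC445. Over all probes 30 and 18 passed in these fits, 26 and 16 of them lower. Without N2 after 20 °C mothers replicate 3, 2 members passed, and without N2 with 20 °C grandparents replicate 1, 4 members passed. The calls over all probes are not given for these last 2 fits.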

How the data were processed

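The authors deposited 1 scanner file per array from Agilent Feature Extraction (version 9.5.3.1, per the file headers) with spot intensities, and a series table of log2 values. The processed signal is the scanner software's background-subtracted intensity, per the file headers. Each column of the deposited log2 table had a median of 9.03 and followed the order of its own array's signal (24 of 24), so it was taken as log2 after a quantile type of normalisation; the sources used here do not give its making.

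Without the control spots, 3 to 373 spots an array flagged as outliers were set to missing, which touched 16 members. The 75th percentiles were 30281.5 to 45402.3 intensity units. The 8 group means were fitted across all 11637 probes with limma 3.58.1 in R 4.3.3 (trended eBayes, two-sided, Benjamini-Hochberg adjustment at 0.05), and the fit was tested on simulated data. Probes with missing values were fitted on the arrays left. Members, lists and tests were chosen with earlier results of these data known. Named members are WBGene00000720 and, per comparison, up to 2 rises and 2 falls, taken by size among called members with every 25 °C array on the same side of the 20 °C mean in its strain; by grandparents, the same number among all tested. Lists of other genes and markers by name could not be applied.

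Alternatives were quantile normalisation, normexp (offset 50), the deposited values, no filter, only probes above background on all arrays, replicate number (the scan day) and slide as blocks, and leaving out arrays. Deviations of same-numbered arrays correlated at -0.068 to 0.302, over 0.1 in 9 of 12 pairs. Figures used matplotlib 3.10.9. Precision is limited by the number of arrays.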

Additional observations from a re-analysis of the deposited data

Results flagged for a closer look

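Of 40 sets of 6 arrays examined (named members by temperature, both strains together), 3 held an array far from the other 5, a gap that chance gives in about 1 set of 20. After 25 °C mothers, WBGene00000601 was at -9.70 on HC445 replicate 2, below the other 5 arrays (-8.29 to -8.68), and WBGene00000610 was at -11.01 on N2 replicate 1, below the others. With 20 °C grandparents, WBGene00000644 was at -5.36 on N2 replicate 3, above the others (-5.95 to -6.14). The causes were not tested.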

How the results depend on the processing

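The temperature results over both strains kept their direction under every alternative run. In HC445 alone, the member median by grandparents (-0.19) was 0.026 after quantile normalisation, 0.0021 after normexp and 0.033 in the deposited values, and the member median between strains with ancestors at 20 °C (-0.03) was 0.060 after quantile normalisation. The causes of the changes below were not tested. The members called after 25 °C mothers (17 over both strains, 8 in N2, 6 in HC445) became 10 over both strains and 5 in N2 among probes above background on all 24 arrays, where only 35 members were tested. With slide as a fixed block they were 2 over both strains and 0 in HC445 (limma; 6 at an unadjusted p under 0.05). Without the arrays noted for their spike-in they were 9, 1 in N2 and 2 in HC445. HC445 had 3 of 82 members called after quantile normalisation, against 622 of 11637 probes, and 3 after normexp, against 592. It had 4 of 82 in the deposited values, against 622 of 11637 probes, and 4 of 130 with no filter, against 540 of 15208. All of these shares were below those of all probes. In each setting all called members were lower, against 248, 221, 252 and 296 lower among all probes. The N2 share without the spike-in arrays, a fit that keeps only replicate 2 of N2 after 25 °C mothers, was also no higher than that of all probes. Without the slide that held only 25 °C arrays, N2 had 5, and 363 over all probes. With slide as a random block N2 had 21, and 1408 over all probes, against 636 in the main fit. With the replicate number as a block there were 17 in N2, 10 in HC445, 10 by grandparents and 4 between strains with ancestors at 20 °C. Over all probes there were 1303, 1132, 71 and 30 in that order, also more than in the main fit. The replicate numbers are scan days, and every named member kept its call. Slide as a random block gave 2 between the strains.

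The 6 members called by grandparents became 1 among probes above background on all arrays and 0 with slide fixed. They were 3 without the spike-in arrays or without that slide. The median after 25 °C mothers (-0.51) was -0.17, -0.11 and -0.17 with quantile, normexp and deposited values, -0.83 without the spike-in arrays and -0.68 without that slide. By grandparents (-0.28) it was -0.090, -0.052 and -0.090 in the first 3 settings, then -0.38 and -0.41, and -0.41, -0.49 and -0.42 with no filter, slide random and slide fixed. WBGene00000720 was -1.91 with slide fixed and -2.01 without the spike-in arrays, neither past the threshold.

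Leaving out 1 array gave 11 to 19 calls over both strains, 5 to 12 in N2 (fewest without 25 °C replicate 3), 3 to 8 in HC445 (3 without replicate 1 or 2 of 25 °C or replicate 1 or 3 of 20 °C mothers), 0 to 4 between strains with ancestors at 20 °C, and 3 to 12 by grandparents. The calls over all probes are not set beside these ranges. The medians ran from -0.65 to -0.31 by mothers and from -0.42 to -0.13 by grandparents, and WBGene00000720 from -2.01 to -1.54, past the threshold each time. The counts of 0 for the other strain comparisons stayed 0 in every setting.

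Detected members by the weaker flag (positive and significant) were 67, 80 and 90 in N2 after 25 °C mothers, HC445 after 20 °C mothers and HC445 with 20 °C grandparents. On at least 1 array they were 90 in N2 after 25 °C and 90 after 20 °C mothers, 99 in HC445 after 25 °C and 90 after 20 °C mothers, and 107 in HC445 with 20 °C grandparents. Above the common level they were 37 in HC445 after 25 °C mothers and 42 in N2 with 25 °C grandparents.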
